A study of Mus musculus with 32 samples.

Results

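The 10 chemokine genes described here were read from the count table by symbol, 10 of 33000 genes, in the frontal cortex of wild-type (WT) and GFAP-IL6 mice. They were 6 inflammatory Ccl genes of chromosome 11 (Ccl12, Ccl8, Ccl2, Ccl7, Ccl3 and Ccl4) and 4 chemokines made by the resting brain (Cx3cl1, Cxcl12, Cxcl14 and Cxcl16). GFAP-IL6 mice carry an interleukin 6 transgene driven by the promoter of the astrocyte gene Gfap, so that astrocytes make IL6. The animals were homozygous for the transgene, and both genotypes were on C57BL/6 and 3 months old. Each genotype had 4 libraries for each amount of total RNA put into reverse transcription (50, 10, 1 or 0.5 ng), which gave 32 libraries. The experiment tested how far the input of 3'Pool-seq, a pooled method that sequences the 3' ends of poly(A) RNA, can be lowered.

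Chemokines are small secreted proteins that guide cells through G protein-coupled receptors. The genes named Ccl2, Ccl7, Ccl8 and Ccl12 encode monocyte chemoattractant proteins, a family named for drawing monocytes. Ccl3 and Ccl4 encode macrophage inflammatory proteins made by activated microglia and macrophages. Cx3cl1 (fractalkine) is a membrane-bound ligand of neurons whose receptor Cx3cr1 sits on microglia. Cxcl12 holds progenitors and leukocytes through Cxcr4, Cxcl14 is an orphan ligand of interneurons and other cells, and Cxcl16 is a membrane-bound ligand of Cxcr6.

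Counts per library ran from 261378 to 9840302, with medians of 3603629, 4463016, 1457725 and 1428120 from the highest to the lowest input. Values are CPM, counts scaled to a common library total, and 3 counts, taken as the floor of a library, were worth between 0.305 and 11.5 CPM. Il6 itself, the check of the genotype labels, had 2 counts in the 4 WT libraries at 50 ng and 52 in the 4 GFAP-IL6 libraries. Summed over inputs, Il6 had 20 counts in WT and 179 in GFAP-IL6. At 1 ng, 13 of the WT counts came from 1 library, replicate 3, and at 0.5 ng no library of either genotype had a count. The same WT replicate number stood apart in another way. The summed level of 4 choroid plexus markers was 3385, 3019, 3099 and 3123 CPM in WT replicate 3 at 50, 10, 1 and 0.5 ng, against 25.5 to 113 CPM in the other WT libraries and 31.4 to 339 CPM in GFAP-IL6 libraries, and the estimates of Ccl12 and Ccl8 are also given without it. The labels do not say whether libraries of 1 genotype and number at different inputs hold the same RNA, so the 4 inputs cannot be taken as independent repeats.

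A gene was called when its adjusted p was under 0.05 and its absolute log2 fold change above 1. For interactions the adjusted p alone decided. The 2 chemokines called in GFAP-IL6 cortex, Ccl12 and Ccl8, are neighbours. Ccl12 lies at chr11:82101845-82103400 on the plus strand of GRCm38, and Ccl8 begins 11.8 kb beyond its end, at chr11:82115185-82116799, on the same strand. Ccl2 (chr11:82035571-82037453) and Ccl7 (chr11:82045712-82047525) lie before them in the same cluster, with Ccl11, the eotaxin gene, between Ccl7 and Ccl12. Ccl3 (chr11:83647844-83649355, minus strand) and Ccl4 (chr11:83662584-83664683, plus strand) form a second cluster with Ccl5, Ccl9 and Ccl6, and 1409 kb separate Ccl8 from its first gene, Ccl5. Because reads were counted only where they aligned uniquely, each member's transcripts were searched for stretches of 70 bases that occur elsewhere. The transcripts of Ccl12 and Ccl8 matched at 65.9% of the longer one's bases in a global alignment, yet none of the 534 windows of Ccl12 or the 442 windows of Ccl8 occurred in any other annotated transcript. The same held for the other members except Cxcl16, of whose 3077 windows 483 (15.7%) lay on the strand opposite to Zmynd15, a gene that shares 552 exon bases with it and had 12 counts in all 32 libraries.

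The 250 bases before the RefSeq start (GRCm38.p6) are shown for Ccl12 and Ccl8, the neighbours that differed between genotypes, and for Cxcl14, which was not called and held the letters of a STAT site. Capitals mark the letters of a searched motif.
Ccl12, chr11:82101595-82101844, plus strand: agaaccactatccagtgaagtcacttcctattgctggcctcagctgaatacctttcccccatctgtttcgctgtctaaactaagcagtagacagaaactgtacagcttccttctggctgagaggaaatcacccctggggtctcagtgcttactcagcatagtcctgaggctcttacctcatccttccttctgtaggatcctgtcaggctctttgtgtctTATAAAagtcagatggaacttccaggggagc
Ccl8, chr11:82114935-82115184, plus strand: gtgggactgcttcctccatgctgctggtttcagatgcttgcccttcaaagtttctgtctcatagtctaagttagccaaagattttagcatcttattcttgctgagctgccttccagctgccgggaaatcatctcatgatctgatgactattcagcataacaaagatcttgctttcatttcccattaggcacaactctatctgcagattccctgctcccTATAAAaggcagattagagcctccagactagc
Cxcl14, chr13:56296552-56296801, minus strand: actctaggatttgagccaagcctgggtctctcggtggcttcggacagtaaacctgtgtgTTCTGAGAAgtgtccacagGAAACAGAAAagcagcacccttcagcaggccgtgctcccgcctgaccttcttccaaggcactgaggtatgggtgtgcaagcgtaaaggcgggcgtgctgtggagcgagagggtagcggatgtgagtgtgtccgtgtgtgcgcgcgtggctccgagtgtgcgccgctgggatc
The capitals in Ccl12 and Ccl8 are TATAAA, the TATA box letters, which ended 26 and 27 bases before the start and occurred in 12.4% of 32851 promoters of the same length. The upstream stretches of the pair matched at 64.4% of positions in a global alignment, and the other pairs among the 6 members with an entry matched at 53.2% to 62.0%. Letters of a STAT site, TTCNNNGAA, the motif of the factors that act below the IL6 receptor, were found only in Cxcl14 among these 6 members (7.02% of promoters). Cxcl14 also held GAAA 2 bases before another GAAA, the letters of an interferon-stimulated response element (2.98%). GGGA 4 bases before CC (an NF-kB motif, 17.6%), TGANTCA (AP-1, 6.75%) and TTGCNNAA (C/EBP, 9.56%) matched in none of the 6 on either strand. Ccl3 and Cxcl12 had no match to any of the 6 motifs, and Cx3cl1 held TATAAA in its last 6 bases.

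Ccl12 was 9.79, 10.2 and 11.9 times higher in GFAP-IL6 cortex at 50, 10 and 1 ng, where it was called, and the estimate at 0.5 ng, where it was not called, was 9.41 times. In bulk tissue more cells of a type and more RNA per cell cannot be told apart. At 50 ng the 4 WT libraries held 7.75, 12.8, 12.8 and 7.43 CPM and the 4 GFAP-IL6 libraries held 123, 91.4, 127 and 49.6 CPM. The lowest GFAP-IL6 library was thus well above the highest WT library. The log2 fold change was 3.29 ± 0.285 (SE, n = 4 per genotype, edgeR adjusted p = 4.98e-07). At 10 ng the WT libraries held 12.5, 4.62, 12.9 and 9.39 CPM and the GFAP-IL6 libraries 142, 69.5, 135 and 81.9 CPM, a log2 fold change of 3.35 ± 0.243 (edgeR adjusted p = 9.39e-12). The groups again did not overlap.

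At 1 ng Ccl12 ran over 5.24, 19.1, 16.1 and 3.68 CPM in WT and 84.3, 61.2, 174 and 132 CPM in GFAP-IL6 libraries, with a log2 fold change of 3.58 ± 0.522 (edgeR adjusted p = 0.00236). At 0.5 ng the WT values were 15.8, 0, 18.5 and 6.08 CPM and the GFAP-IL6 values 149, 27.1, 122 and 95.5 CPM. All 4 GFAP-IL6 libraries lay above all WT libraries there too, but the closest values, 27.1 and 18.5 CPM, rested on 8 and 24 counts. The log2 fold change at 0.5 ng was 3.23 ± 0.794 and was not called over 8571 genes (edgeR adjusted p = 0.689), while DESeq2 gave an adjusted p of 0.0102 for the same libraries. Over all alternatives run at 0.5 ng its adjusted p ran from 0.000386 to 0.999941. Without WT replicate 3 the estimates were 3.45, 3.43, 3.99 and 3.59 from 50 to 0.5 ng, and the first 3 kept their calls.

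**Figure D1:**
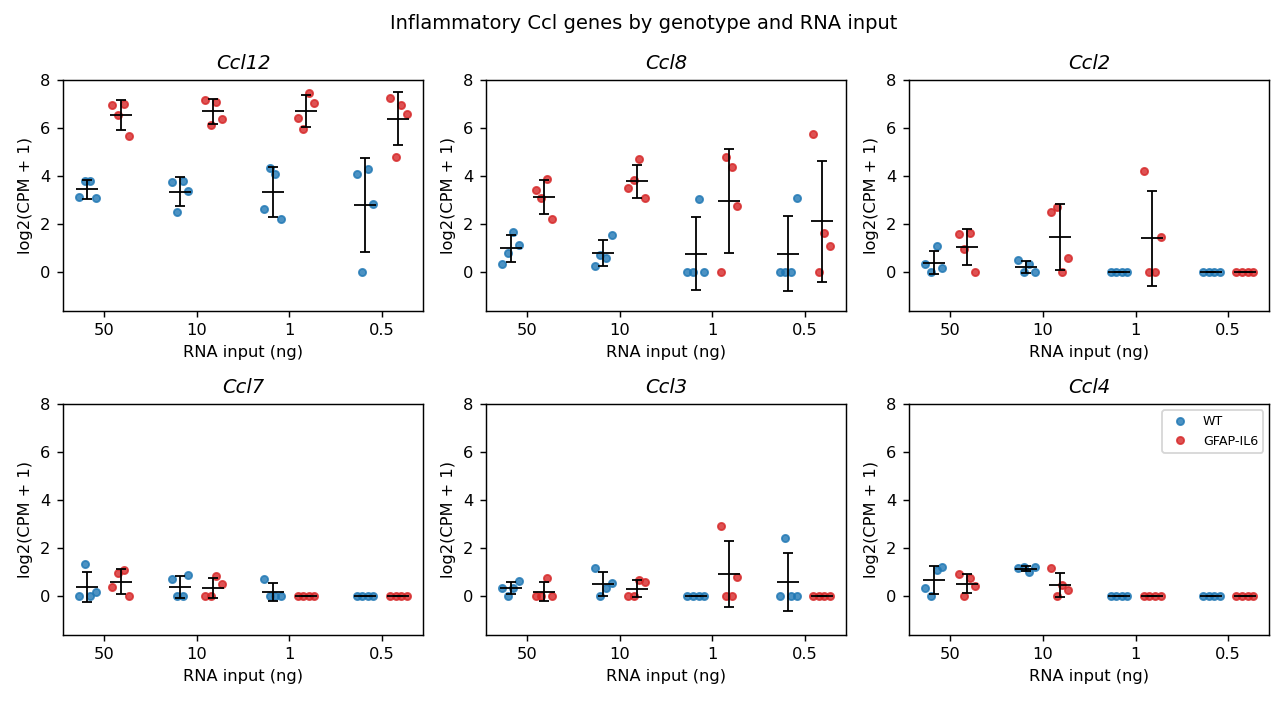
The 6 inflammatory Ccl genes, with log2(CPM + 1) on the vertical axis and RNA input in ng on the horizontal axis; each point is 1 library, and the bars show mean ± SD of 4 libraries per genotype. Ccl12 separates the genotypes at each input, Ccl8 at 50 and 10 ng, and Ccl2, Ccl7, Ccl3 and Ccl4 lie near 0 in most libraries.

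Ccl8 was higher in GFAP-IL6 libraries at the inputs where it could be tested. At 50 ng it had 0.277, 0.752, 2.23 and 1.19 CPM in WT and 9.85, 7.46, 13.6 and 3.58 CPM in GFAP-IL6 libraries, and at 10 ng 0.206, 0.660, 0.505 and 1.90 CPM against 10.3, 13.2, 25.4 and 7.52 CPM. The groups did not overlap at either input, but Ccl8 passed edgeR's filter on low counts there only through its GFAP-IL6 libraries. The log2 fold change was 2.81 ± 0.516 at 50 ng (edgeR adjusted p = 0.0123) and 3.80 ± 0.558 at 10 ng (edgeR adjusted p = 7.87e-05). The 50 ng call was lost without any of WT replicates 1, 2 and 4 and GFAP-IL6 replicates 1 and 3, with adjusted p between 0.0506 and 0.0970, but held without WT replicate 3 (log2 fold change 3.28, edgeR adjusted p = 0.0174). At 10 ng the log2 fold change was 3.57 without WT replicate 3 and 5.03 without WT replicate 4, which held 16 of the 20 WT counts. In a single fit of all 32 libraries Ccl8 was called at neither input (log2 fold changes 2.87 and 3.90).

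At 1 and 0.5 ng Ccl8 dropped in and out of libraries and did not pass edgeR's filter on low counts. At 1 ng it had 0, 0, 9 and 0 counts in WT and 0, 7, 35 and 16 counts in GFAP-IL6 libraries (difference 11.2 CPM, two-sided exact permutation p = 0.257). At 0.5 ng a single WT library held 20 counts and the others none, while the GFAP-IL6 libraries held 82, 0, 4 and 3 counts (exact permutation p = 0.543). GFAP-IL6 libraries held 7.22 to 10.7 counts of Ccl8 per 100 counts of Ccl12 at 50 ng and 7.28 to 18.9 at 10 ng, against 0 to 43.8 at 1 ng and 0 to 35.2 at 0.5 ng. So the proportion of the neighbours varied more between libraries at the lower inputs.

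Markers of the cells that cortex holds were read beside Ccl12 and Ccl8. The 6 neuron markers summed to 5745 to 6677 CPM in the 8 libraries at 50 ng. The 12 microglia markers summed to 583 to 659 CPM in WT and 706 to 1326 CPM in GFAP-IL6 libraries at 50 ng. Of these edgeR called 3 higher (Itgam, C1qb and C1qc, log2 fold changes 2.26, 1.10 and 1.04) and did not call 9. Over all tested genes 0.28% of 11773 were called higher. The log2 fold changes of the 12 had a median of 0.81 and a minimum of -0.21. The 8 astrocyte markers summed to 1547 to 1636 and 1678 to 3452 CPM. Of these edgeR called 1, Gfap (log2 fold change 2.20), and did not call 7. The log2 fold changes of the 8 had a median of 0.32 and a minimum of -0.34. The 6 endothelial markers summed to 30.8 to 39.2 and 47.2 to 112 CPM, with 0 of 3 tested called by edgeR (1 at an unadjusted p under 0.05, 0 by DESeq2). The 6 perivascular macrophage markers overlapped (10.3 to 16.5 and 8.69 to 13.1 CPM), as did 8 monocyte and neutrophil markers (1.95 to 3.18 and 2.33 to 13.4 CPM, with Ly6g at 0 in both genotypes) and 8 T and NK cell markers (0 to 0.929 and 0 to 2.77 CPM, with Cd3e, Cd3d and Cd8a at 0 in both). The part of any of these cells in the levels of Ccl12 and Ccl8 was not tested.

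The other monocyte chemoattractants of the cluster were near the floor. Ccl2 had 1, 0, 4 and 1 counts in WT and 7, 1, 9 and 0 counts in GFAP-IL6 libraries at 50 ng, and 2, 0, 1 and 0 against 19, 6, 0 and 5 counts at 10 ng. At 1 ng no WT library had a count of Ccl2 and the GFAP-IL6 libraries had 24, 0, 0 and 5, and at 0.5 ng none of the 8 libraries had any. Most libraries thus held a handful of reads or none, and the groups overlapped at each input. When the 4 inputs were summed per genotype and replicate number, Ccl2 came to 3, 0, 5 and 1 counts in WT and 50, 7, 9 and 10 counts in GFAP-IL6 (0.203 ± 0.227 against 2.14 ± 2.0 CPM, SD, n = 4, two-sided exact permutation p = 0.0571, where 0.0286 is the smallest value that 4 against 4 can give). Of these summed CPM values 3 of 4 GFAP-IL6 sums lay above all WT sums, since the GFAP-IL6 replicate 4 sum was 0.477 CPM and the highest WT sum 0.495 CPM. Ccl2 did not pass the filter on low counts, and without that filter the summed difference was called (log2 fold change 3.23 ± 0.898, edgeR adjusted p = 0.0428).

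Ccl7 showed no such split. It had 0, 2, 0 and 1 counts in WT and 1, 1, 5 and 0 counts in GFAP-IL6 libraries at 50 ng, and its summed levels were 0.321 ± 0.229 and 0.336 ± 0.261 CPM (SD, n = 4, exact permutation p = 0.943). The 4 monocyte chemoattractant genes together had 539 counts in WT and 5652 in GFAP-IL6. Ccl12 made up 83.1% of them in WT (Wilson 95% interval 79.7 to 86.0) and 89.1% in GFAP-IL6 (88.2 to 89.9), Ccl8 12.6% (10.1 to 15.7) and 9.31% (8.58 to 10.1), Ccl2 1.67% (0.881 to 3.14) and 1.34% (1.08 to 1.68), and Ccl7 2.60% (1.55 to 4.31) and 0.265% (0.161 to 0.437). These intervals treat each read as independent and do not include the spread between libraries. Reads carried no molecular identifiers, so PCR copies were counted as separate reads. The intervals may therefore be too narrow even for counting error.

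The macrophage inflammatory protein genes were near the floor in both genotypes. Ccl3 had 1, 0, 1 and 4 counts in WT and 0, 0, 3 and 0 in GFAP-IL6 libraries at 50 ng, and its summed levels were 0.437 ± 0.189 and 0.413 ± 0.355 CPM (SD, n = 4, exact permutation p = 0.914). Ccl4 had 1, 0, 4 and 10 counts in WT and 3, 0, 3 and 2 in GFAP-IL6 libraries at 50 ng. At 10 ng the Ccl4 values were 1.23, 1.32, 1.01 and 1.31 CPM in WT and 1.23, 0, 0.397 and 0.203 CPM in GFAP-IL6 libraries (exact permutation p = 0.0571), so that 3 of 4 lay below all WT libraries. Its summed mean was lower in GFAP-IL6 (0.334 ± 0.326 against 0.740 ± 0.201 CPM, n = 4, exact permutation p = 0.0857), the opposite direction to Ccl12, without passing the test. At 1 and 0.5 ng none of the 16 libraries had a count of Ccl4.

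The constitutive genes lie apart, Cx3cl1 at chr8:94772009-94782427 and Cxcl12 at chr6:117168535-117181367 on the plus strand, and Cxcl14 at chr13:56288643-56296551 and Cxcl16 at chr11:70453983-70459984 on the minus strand. Cx3cl1 had close levels in both genotypes. At 50 ng it had 492, 517, 559 and 543 CPM in WT and 495, 480, 561 and 534 CPM in GFAP-IL6 libraries, and the groups overlapped almost fully. The genotypes differed on the log2 scale by -0.066 ± 0.148, -0.10 ± 0.130, 0.062 ± 0.166 and 0.16 ± 0.209 in order of falling input (edgeR adjusted p at least 0.880). With 135 to 5561 counts per library, Cx3cl1 was also the member with the most counts behind each value.

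Cxcl12 had 38.7, 42.9, 27.0 and 33.6 CPM in WT and 37.4, 46.6, 48.6 and 40.5 CPM in GFAP-IL6 libraries at 50 ng (log2 fold change 0.25 ± 0.202, edgeR adjusted p = 0.837). The groups overlapped, and at 10, 1 and 0.5 ng the log2 fold changes were -0.051, 0.012 and -0.11. At 1 ng the Cxcl12 values were 26.8, 71.0, 64.3 and 37.2 CPM in WT and 77.1, 7.65, 58.5 and 44.6 CPM in GFAP-IL6 libraries, so that single libraries of 1 genotype lay far apart. Cxcl14 had 68.4, 62.4, 82.9 and 79.1 CPM in WT and 76.5, 69.0, 81.8 and 65.6 CPM in GFAP-IL6 libraries at 50 ng (log2 fold change -0.041 ± 0.171). At 10 ng it had 102, 85.2, 89.4 and 85.2 CPM in WT and 73.6, 58.2, 89.8 and 55.5 CPM in GFAP-IL6 libraries. Of those GFAP-IL6 libraries 3 lay below all WT libraries, yet the difference of -0.41 ± 0.171 on the log2 scale was not called (edgeR adjusted p = 0.576). The summed difference of Cxcl14 was -0.20 ± 0.146 (edgeR adjusted p = 0.750).

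Cxcl16 was the constitutive member with the largest estimated difference. At 50 ng it had 1.94, 0.752, 3.06 and 2.79 CPM in WT and 6.95, 6.53, 8.07 and 2.87 CPM in GFAP-IL6 libraries. All but 1 of the GFAP-IL6 libraries lay above all WT libraries. The log2 fold change was 1.28 ± 0.437 at 50 ng (edgeR adjusted p = 0.610) and 1.25 ± 0.645 at 10 ng (edgeR adjusted p = 0.681). The 10 ng estimate was 2.32 without WT replicate 1 and 0.84 without WT replicate 4, and was called in neither case. Over summed inputs Cxcl16 had 3.48, 1.91, 1.59 and 1.28 CPM in WT and 4.87, 9.66, 6.42 and 3.96 CPM in GFAP-IL6, which did not overlap. The summed log2 fold change was 1.51 ± 0.452 and was not called (edgeR adjusted p = 0.212). At 1 ng 1 GFAP-IL6 library, replicate 2, held 65.0 CPM from 17 counts, and at 0.5 ng no WT library had a count, against 7, 0, 6 and 19 counts in GFAP-IL6.

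**Figure D2:**
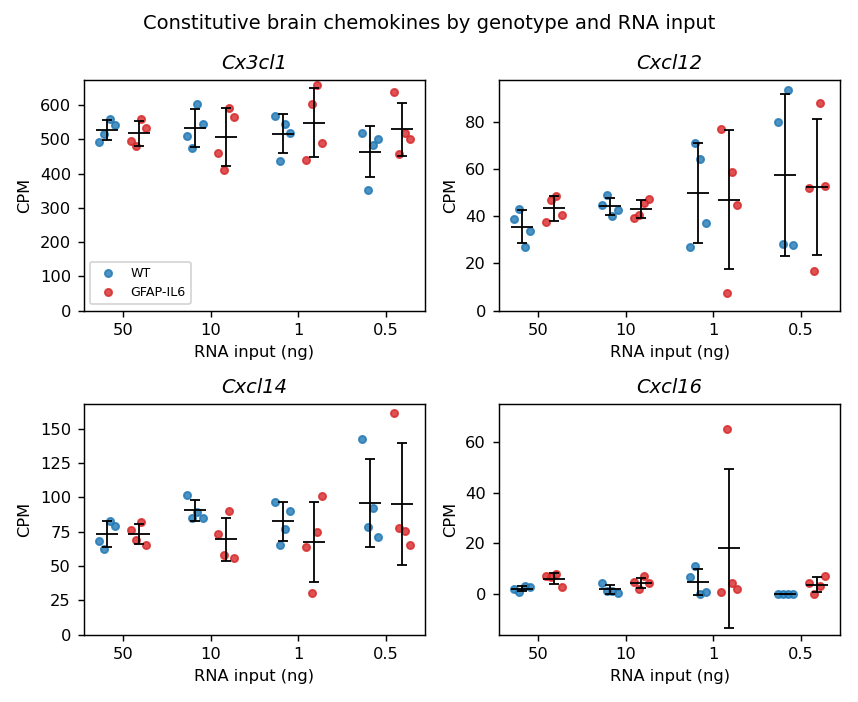
The 4 constitutive chemokines, with CPM on a linear vertical axis and RNA input in ng on the horizontal axis; points are single libraries and bars are mean ± SD of 4 libraries per genotype. WT and GFAP-IL6 points of Cx3cl1, Cxcl12 and Cxcl14 overlap at each input, the points of Cxcl12 spread apart at 1 and 0.5 ng, and 1 GFAP-IL6 library of Cxcl16 at 1 ng stands at 65.0 CPM.

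Counted together, 6 of the 10 members passed edgeR's filter on low counts at 50 ng, at 10 ng and over summed inputs, and 4 did so at 1 and 0.5 ng. Ccl12 and Ccl8 were called higher at 50 ng, where 0.28% of 11773 tested genes were called higher, at 10 ng (0.249% of 12043 genes) and over summed inputs (0.387% of 13450 genes). At 1 ng Ccl12 was 1 of the 3 genes called higher in all (0.0323% of 9276). At 0.5 ng 1 gene was called (0.0117% of 8571), and it was no member, with 1 member, Ccl12, at an unadjusted p under 0.05 and 1 member called by DESeq2. Over all genes, 246 had an unadjusted p under 0.05 there and DESeq2 called 21 of 13890. At an unadjusted p under 0.05 there was 1 more member at 50 ng and over summed inputs, Cxcl16, and at 10 ng, Cxcl14. No member was called lower at any input. The summed log2 fold changes were 3.36 ± 0.213 for Ccl12 (edgeR adjusted p = 8.19e-11) and 3.17 ± 0.484 for Ccl8 (edgeR adjusted p = 0.000496).

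The median log2 fold change of the 6 tested members was 0.77 and 0.60 at 50 and 10 ng. Over all tested genes it was -0.0034 and 0.0034. For the 4 members tested at 1 and 0.5 ng it was 0.037 and 0.070, beside -0.0065 and -0.0097. Ccl8 and Cxcl16 failed the filter there, so these medians cannot be compared with those at 50 and 10 ng. Most counts of Ccl8 lay in GFAP-IL6 libraries (121 against 19 in WT at 50 ng). The members were also chosen with earlier results known, so the medians only describe them. All 4 GFAP-IL6 libraries lay above all WT libraries for Ccl12 and Ccl8 at 50 ng, as for 2.17% of all tested genes, and at 10 ng (2.77%). The same held for Ccl12 alone at 1 ng (1.68%) and 0.5 ng (1.47%), and for Ccl12, Ccl8 and Cxcl16 over summed inputs (2.8%). At 50 and 10 ng Ccl8 passed the filter only through its GFAP-IL6 libraries. Its highest WT values there were 2.23 and 1.90 CPM and its lowest GFAP-IL6 values 3.58 and 7.52 CPM. The separation of Ccl8 at these inputs was thus largely fixed by the filter and is no separate evidence. None of the members that failed the filter separated the genotypes fully at any input.

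**Figure D3:**
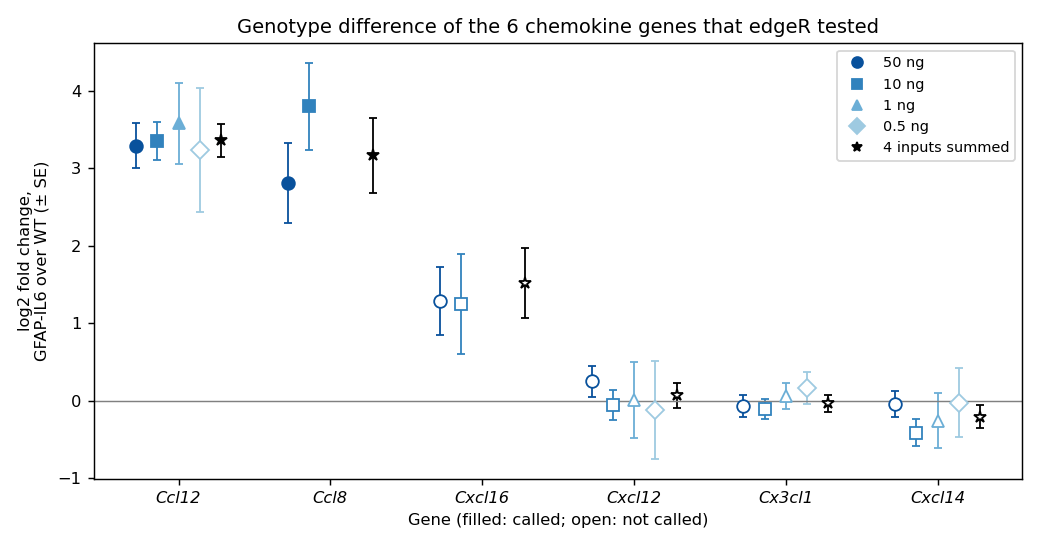
Log2 fold change of GFAP-IL6 over WT with its SE (vertical axis) for the 6 members that edgeR tested (horizontal axis), by RNA input and for the 4 inputs summed; filled symbols passed the call and open symbols did not. Ccl12 stays between 3.23 and 3.58 at the 4 inputs, Ccl8 lies at 2.81 and 3.80 where it was tested, and Cxcl12, Cx3cl1 and Cxcl14 lie between -0.41 and 0.25.

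Set in order of level per kb of gene length at 50 ng, the WT members ran from Cx3cl1 (159 ± 8.92 CPM per kb, SD, n = 4) over Cxcl14 (40.1 ± 5.19), Ccl12 (19.0 ± 5.60) and Cxcl12 (4.96 ± 0.958) to Ccl8 (2.18 ± 1.63). The first 3 steps of that order had no overlap between libraries, and every later neighbour pair overlapped. On this per-kb scale Ccl12 had the highest mean in GFAP-IL6 cortex (182 ± 66.3 CPM per kb), overlapping with Cx3cl1 (156 ± 11.1). Cxcl14 (40.2 ± 4.01), Ccl8 (16.9 ± 8.23) and Cxcl12 (6.05 ± 0.734) followed without overlap between neighbours. Since a 3' library yields about the same reads from a short and a long transcript, levels are better read from CPM without length. The paper likewise did not normalize for gene length. In CPM, Cx3cl1 was first in both genotypes (528 in WT and 517 in GFAP-IL6). Ccl12 had rank 4 in WT (10.2 CPM) and rank 2 in GFAP-IL6 (97.5 CPM). The order of Ccl8 and Cxcl12 in GFAP-IL6 cortex also differed, since Ccl8 lay above Cxcl12 per kb but below it in CPM (8.62 ± 4.2 against 43.3 ± 5.26).

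No tested member was called between RNA inputs. Against 50 ng, edgeR called 0 of 6 tested members at 10, 1 and 0.5 ng, with 0 at an unadjusted p under 0.05 and 0 called by DESeq2, while 0% of 12599 genes were called at 10 ng, 0.257% of 11290 at 1 ng and 0.763% of 11406 at 0.5 ng. The input difference of Ccl12 was 0.16 ± 0.192, 0.17 ± 0.281 and 0.13 ± 0.374 on the log2 scale at 10, 1 and 0.5 ng, and that of Cx3cl1 was 0.016 ± 0.0890, 0.087 ± 0.101 and -0.011 ± 0.119. Other estimates were larger and less precise. Cxcl16 differed by -0.30 ± 0.394, 1.10 ± 0.790 and -1.68 ± 0.863 (edgeR adjusted p = 0.465 at 0.5 ng), Ccl8 by 0.42 ± 0.388, 0.58 ± 0.779 and 0.97 ± 0.923, and Cxcl12 by 0.19 ± 0.131, 0.39 ± 0.263 and 0.56 ± 0.326. Ccl2, Ccl7, Ccl3 and Ccl4 failed the filter and were not tested between inputs. The genotype difference of the members was compared between inputs by interaction, where edgeR called no gene (0% at each input, while 174, 471 and 758 genes had an unadjusted p under 0.05 and DESeq2 called 0, 8 and 165, none of them a member). Ccl12 had interactions of 0.042 ± 0.411, 0.37 ± 0.590 and -0.046 ± 0.758. The only member at an unadjusted p under 0.05 was Cxcl16 at 0.5 ng (5.05 ± 1.93, edgeR adjusted p = 0.50), where its 4 WT libraries had no count.

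The spread between libraries varied with input. The coefficient of variation (CV) of Cx3cl1 over 4 libraries was 5.60% in WT and 7.12% in GFAP-IL6 at 50 ng and 16.2% and 14.5% at 0.5 ng. That of Cxcl12 was 19.3% and 12.1% at 50 ng, 8.41% and 9.07% at 10 ng, and 59.9% and 55.2% at 0.5 ng. Counting alone would give Cxcl12 a CV of 13.5% in WT and 15.3% in GFAP-IL6 libraries at 0.5 ng; separate libraries differ by more than counting error, so the pair of values only sets the scale. Ccl12 in WT libraries had a CV of 29.5% at 50 ng and 85.1% at 0.5 ng, with 32.1% from counting at 0.5 ng. These CVs are descriptions of 4 libraries each and were not tested against each other.

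**Figure D4:**
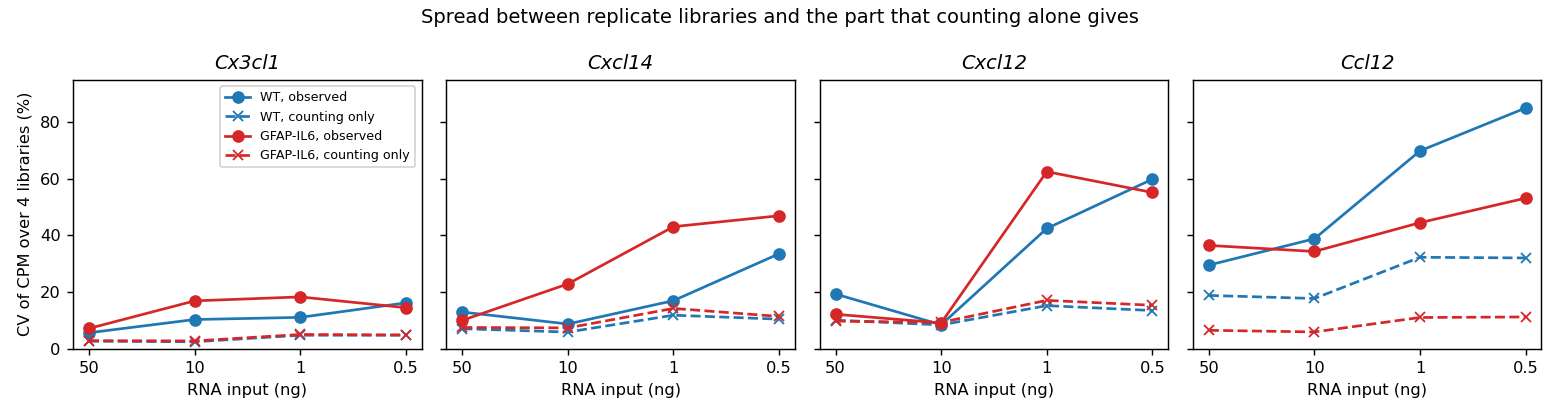
Coefficient of variation of CPM over the 4 libraries of a genotype (vertical axis, %) against RNA input in ng (horizontal axis) for 4 members; solid lines are observed and dashed lines are what counting error alone would give. The Cxcl12 lines lie at 8.41% and 9.07% at 10 ng and at 59.9% and 55.2% at 0.5 ng, while its dashed lines stay at or below 17.0%.

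Detection of the weak members was lower at 1 and 0.5 ng, where library totals were lower too. Median totals were 3603629 and 4463016 counts at 50 and 10 ng and 1457725 and 1428120 at 1 and 0.5 ng. The parts of depth and RNA input in the lower detection were not tested. Ccl2 had a count in 6, 5, 2 and 0 of the 8 libraries per input, from 50 ng downwards, and Ccl4 in 6, 7, 0 and 0 libraries. Ccl8 had a count in all 8 libraries at 50 and 10 ng and in 4 at 1 and at 0.5 ng. The GFAP-IL6 library with the smallest total, 261378 counts at 1 ng, held 7 counts of Ccl8.

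The receptors of these ligands were read from a list of 23 genes. None was called by edgeR at 50 ng (of 4 tested, 0 at an unadjusted p under 0.05, 0 by DESeq2), 10 ng (of 5, 3 at an unadjusted p, 0 by DESeq2) or over summed inputs (of 6, 2 at an unadjusted p, 1 by DESeq2). Cx3cr1, the microglial receptor of Cx3cl1, had a summed level of 26.8 ± 5.14 CPM in WT and 39.0 ± 4.38 CPM in GFAP-IL6 (log2 fold change 0.53 ± 0.187, edgeR adjusted p = 0.402). Its summed groups did not overlap, while all GFAP-IL6 sums lay above all WT sums for 2.8% of all tested genes. At each single input the groups of Cx3cr1 overlapped. The lowest GFAP-IL6 and highest WT values were 28.0 and 34.9 CPM at 50 ng, and 32.7 and 39.6 CPM at 10 ng. Ackr3, the scavenging receptor of Cxcl12, had 8.74 ± 3.49 and 9.82 ± 5.38 CPM (edgeR adjusted p = 0.966). Ccr2, the receptor of Ccl2, Ccl7 and Ccl12 on monocytes, had 7 counts in the WT libraries and 35 in the GFAP-IL6 libraries over all inputs, and Ccr1 had 20 and 24. Most of the GFAP-IL6 counts of Ccr2 lay in replicate 3, with 9, 3 and 11 at 50, 10 and 1 ng. GFAP-IL6 replicate 1 held no count of Ccr2 at any input, and the genotypes were not compared for it. Cxcr4 had no count in any library and Cxcr6 had 2 counts, both in GFAP-IL6. The signalling receptors of Cxcl12 and Cxcl16 thus could not be compared between genotypes, and the reason for the missing counts was not tested. Of 6 proteases that cut chemokines, among them the sheddases Adam10 and Adam17, edgeR called none of the 4 tested at 50 ng, 10 ng or over summed inputs (0 at an unadjusted p under 0.05, 0 by DESeq2).

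Of 27 other chemokine genes in the table, edgeR tested 6 at 50 ng, 6 at 10 ng and 9 over summed inputs, and called none (1, 0 and 2 at an unadjusted p under 0.05, 0 by DESeq2). Their median log2 fold changes were -0.25, -0.36 and -0.08. The cluster neighbour Ccl11 had 1 count in all libraries. Of the genes beside Ccl3, the summed level of Ccl5 was 0.627 ± 0.434 CPM in WT and 2.03 ± 0.858 CPM in GFAP-IL6 (n = 4, exact permutation p = 0.0286), that of Ccl9 2.84 ± 1.85 and 3.54 ± 2.13 CPM (exact permutation p = 0.629) and that of Ccl6 4.58 ± 0.874 and 5.91 ± 2.88 CPM (exact permutation p = 0.457). These neighbours were named for their position and after their values were seen, and the 3 exact p-values are not adjusted.

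Genes whose pattern was most like that of Ccl12 were taken as those with the smallest root mean square difference from it, over the 8 GFAP-IL6 libraries at 50 and 10 ng, in log2(CPM + 1) minus the WT mean of the same input. Among 11610 genes these were Scgb3a1, a secretoglobin (0.53 on the log2 scale), Ccl8 (0.82), Fam187a (0.93), the complement gene C4b (1.07) and Gfap (1.11). The measure favours genes with a rise of the same size, and Ccl12 itself lay 3.21 above WT on that scale.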

How the data were processed

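Per the labels, RNA was frontal cortex total RNA, reverse transcribed with indexed oligo-dT primers and pooled. The authors trimmed poly(A), aligned single-end reads with STAR (2.4 per the submitters' processing notes) and counted unique reads per GENCODE gene with featureCounts, and they tested with DESeq2. The deposited values are raw counts for 33000 genes in 32 libraries, and whether strand was used is not given in the sources used here. All value columns matched a library. Counts were tested with edgeR 4.0.16 in R 4.3.3 (TMM, filterByExpr, quasi-likelihood test, Benjamini-Hochberg over all tested genes), in separate fits per input, on counts summed per genotype and replicate number, and on pairs of inputs with genotype as covariate and, for interactions, with its product. SE came from the F statistic. DESeq2 1.42.0 was an alternative. The scripts were tested on simulated data. Members that failed the filter were compared in CPM by exact permutation over 70 arrangements. The members and lists were chosen with earlier results of these data known, and named genes were the members, Il6, called genes of the lists, 7 receptors (1 is not reported here) and the 5 genes most like Ccl12. Replicates of a group differed beyond sampling noise in all 48 pairs (smallest chi-square per degree of freedom 2.37). Nothing in the labels says that replicates are separate animals, or that numbers mark separate RNA at each input, so p-values measure the spread between libraries, and sums per number join libraries that may share RNA. Coordinates are from GENCODE on GRCm38, and promoters from RefSeq, where 6 of 10 members had an entry. Other values used Python 3.11.15, pandas 2.3.3, scipy 1.17.1, biopython 1.88 and matplotlib 3.10.9.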

Additional observations from a re-analysis of the deposited data

Results flagged for a closer look

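In groups of 4 libraries, a value was singled out when its gap to the nearest other library, divided by the range, was above Dixon's critical value at the 95% level. Of 67 groups of the members with any spread, 11 had such a value, and chance gives about 1 in 20. In 5 of the 11 the other 3 libraries had no count, so that any count at all, here 1 to 20, was singled out, and the 11 cannot be set against that share. In each case the library was the highest of its group. Ccl8 stood at 7.23 CPM in WT replicate 3 at 1 ng and at 7.60 CPM in WT replicate 4 at 0.5 ng, with no count in the other 3 libraries of either group, and at 52.5 CPM in GFAP-IL6 replicate 1 at 0.5 ng, where the others held 0 to 2.09 CPM. Ccl2 stood at 17.3 CPM in GFAP-IL6 replicate 1 at 1 ng (others 0 to 1.79 CPM). Ccl7 stood at 1.5 CPM in WT replicate 2 at 50 ng and at 0.655 CPM in WT replicate 1 at 1 ng, from 2 counts and 1 count. Ccl3 stood at 0.692 CPM in GFAP-IL6 replicate 3 at 50 ng, 6.48 CPM in GFAP-IL6 replicate 1 at 1 ng and 4.33 CPM in WT replicate 2 at 0.5 ng, from 3, 9 and 2 counts. Cxcl14 stood at 161 CPM in GFAP-IL6 replicate 1 at 0.5 ng (others 65.0 to 78.0 CPM, 252 counts). Cxcl16 stood at 65.0 CPM in GFAP-IL6 replicate 2 at 1 ng (others 0.721 to 4.46 CPM, 17 counts). No difference in genotype effect between inputs was called for a member.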

How the results depend on the processing

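Ccl12 was called at 50 and 10 ng and over summed inputs under each alternative run. Ccl8 kept its calls at 10 ng and over summed inputs except in the fit of all 32 libraries, which left 1 member called at 50 ng and 1 at 10 ng, Ccl12 in both. That fit called 3 of 12164 genes at 50 ng and 4 at 10 ng. The cause of the lost calls was not tested. At 0.5 ng the DESeq2 test and the fit without a filter on low counts called 1 member (Ccl12), and the fit of all 32 libraries called 2 (Ccl12 and Cxcl16), against 0. Over all genes, DESeq2 called 21 of 13890 and the fit without a filter 4 of 14594 there. The fit of all 32 libraries called 616 of 12164 genes, 355 higher and 261 lower. The separate fit of that input called 1 of 8571. Without a filter, 1 member that edgeR otherwise did not test, Ccl2, was called over summed inputs, where 114 of 19973 genes were called. Leaving out each replicate gave 1 to 2 called members at 50 ng, 2 at 10 ng and over summed inputs, 0 to 1 at 1 ng and 0 at 0.5 ng, and the call of Ccl12 at 1 ng was lost without GFAP-IL6 replicate 3 (log2 fold change 3.29, edgeR adjusted p = 0.0555). For uncalled members, leaving out a replicate turned the sign of some log2 fold changes. Cxcl14 ran from -0.10 to 0.027 at 50 ng and from -0.45 to 0.24 at 0.5 ng. Cxcl12 ran from -0.13 to 0.0082 at 10 ng and from -0.32 to 0.30 at 1 ng. It ran from -0.44 to 0.17 at 0.5 ng and from -0.0069 to 0.13 over summed inputs. Cx3cl1 ran from -0.010 to 0.15 at 1 ng. Cxcl12 at 1 ng also turned to -0.012 with the DESeq2 test.

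Replicate numbers recur in all groups. The deviations of WT and GFAP-IL6 libraries of 1 number from their group means correlated at -0.0067 to 0.32. Within a genotype, the correlations of other inputs with 50 ng were all positive, from 0.030 to 0.70. Their mean was highest for GFAP-IL6 at 10 and 50 ng (0.41), where pairs ran from 0.042 to 0.70. Only WT at 10 and 50 ng had all pairs above 0.1. With the replicate block, the same count of members was called at each input, with 2 at 50 ng, 2 at 10 ng, 1 at 1 ng, 0 at 0.5 ng and 2 over summed inputs, 0 in the input and interaction fits, and Cxcl12 at 1 ng turned to -0.049. Leaving out replicates in the input and interaction fits was chosen after seeing the data and gave 0 called members. Of the 20 ranks by level at 50 ng, 9 moved when CPM was divided by length. Counts of Ccl2, Ccl7, Ccl3 and Ccl4 failed the filter, and the parts of depth and RNA input in this were not tested.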

Other observations

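At 1 ng, GFAP-IL6 replicate 1 held 24 counts of Ccl2, 9 counts of Ccl3 and 27 counts of Il6, the highest of its group for each, while it held no count of Ccl8, which had 7, 35 and 16 counts in the other 3 libraries. At 50 ng the library of the same genotype and number held 7, 0 and 17 counts of Ccl2, Ccl3 and Il6 and 34 counts of Ccl8. At 10 ng it held 19, 0 and 41 counts, the highest of its group for Ccl2 and Il6, and 42 counts of Ccl8. At 0.5 ng it held none of Ccl2, Ccl3 or Il6 and 82 counts of Ccl8. These values were picked after they were seen.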
